A study of Capra hircus with 12 samples.

Results

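The insulin-like growth factor (IGF) system genes are the genes of its ligands, receptors and binding proteins: IGF1, IGF2, IGF1R, IGF2R, INSR, IGFBP2, IGFBP3, IGFBP4, IGFBP5 and IGFBP6. They were taken by symbol, and all 10 of 10 were found among the 20326 genes of the files. Each of the 10 passed the filter on low values that left 16095 genes for testing. The RNA came from secondary hair follicles, the small follicles that make cashmere, taken from the skin of goats (Capra hircus) aged 1.5 years and sequenced on an Illumina platform. The study followed the follicles through a year of cashmere growth. Growing follicles (anagen) were taken in May and September, regressing follicles (catagen) in November and December, and resting follicles (telogen) in February and March. A male and a female library were made for each of the 6 months, so a stage had 4 libraries and the series 12. The labels record no treatment or mutation, and they do not say whether the same goats were sampled in different months.

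IGF1 and IGF2 are secreted growth factors that signal through the tyrosine kinase receptor IGF1R and, for IGF2 and insulin, through INSR. IGF2R has no kinase: it is the mannose 6-phosphate receptor, which takes IGF2 from the surface to lysosomes. The binding proteins hold the ligands outside the cell and can block or prolong their action. In human and mouse follicles IGF1 is made by the dermal papilla, the connective tissue at the base of the follicle, and prolongs hair growth.

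Levels are given in the deposited unit, headed TPM and rescaled across libraries, and are written below as units. A unit of this name is per transcript length, so levels are set side by side between genes below. This assumes that the rescaling, whose step is not described, acted alike on all genes of a library. In whole-tissue RNA, fewer cells of a type and less RNA per cell cannot be told apart. The March male library stood apart from the other telogen libraries: mitochondrial transcripts took 4.63% of its signal, against 9.88 to 11.8% in the other telogen libraries, 2.07 to 3.51% in catagen and 1.53 to 2.42% in anagen. Stage calls of the IGF system genes that rest on telogen are therefore given with and without it. Keratin genes of the follicle were present in every library. The summed inner root sheath keratins, 5 of 9 listed, were 16396 to 21051 units in anagen, 12514 to 18939 in catagen and 3560 to 12328 in telogen libraries. Dermal papilla markers, all 11 of 11 listed, summed to 48.1 to 63.9 units in anagen, 55.0 to 67.5 in catagen and 65.8 to 81.9 in telogen. No marker on the lists was at 0 in every library. Skeletal muscle markers, 11 of 14 listed, summed to 292 and 299 units in the May male and female and to 47.6 to 152 units in the other 10 libraries.

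The binding protein genes held the top of the order. Over the 12 libraries IGFBP5 averaged 112 ± 19.7 units, IGFBP3 66.4 ± 21.8, IGFBP4 62.7 ± 10.6 and IGFBP6 34.0 ± 20.8 (SD, n = 12). The receptors followed, with IGF1R at 29.6 ± 3.21, INSR at 25.7 ± 2.91 and IGF2R at 17.4 ± 2.41 units, and then IGF1 at 15.7 ± 4.53, IGF2 at 12.4 ± 6.27 and IGFBP2 at 8.77 ± 4.04 units. The ranges of every pair of neighbours in this order overlapped, although IGFBP5 lay above IGFBP3 in 12 of 12 libraries and INSR above IGF2R in 12 of 12. The members differed in how far they moved: the highest library was 8.09 times the lowest for IGFBP6, 4.24 times for IGFBP2, 4.20 times for IGF2 and 2.97 times for IGFBP3, and 1.43 times for IGF1R. IGFBP6 was the fourth highest member in anagen and in catagen and the ninth in telogen. Its range in telogen overlapped that of IGF2R, the member above it, and lay apart from that of IGFBP2, the member below it.

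**Figure D1:**
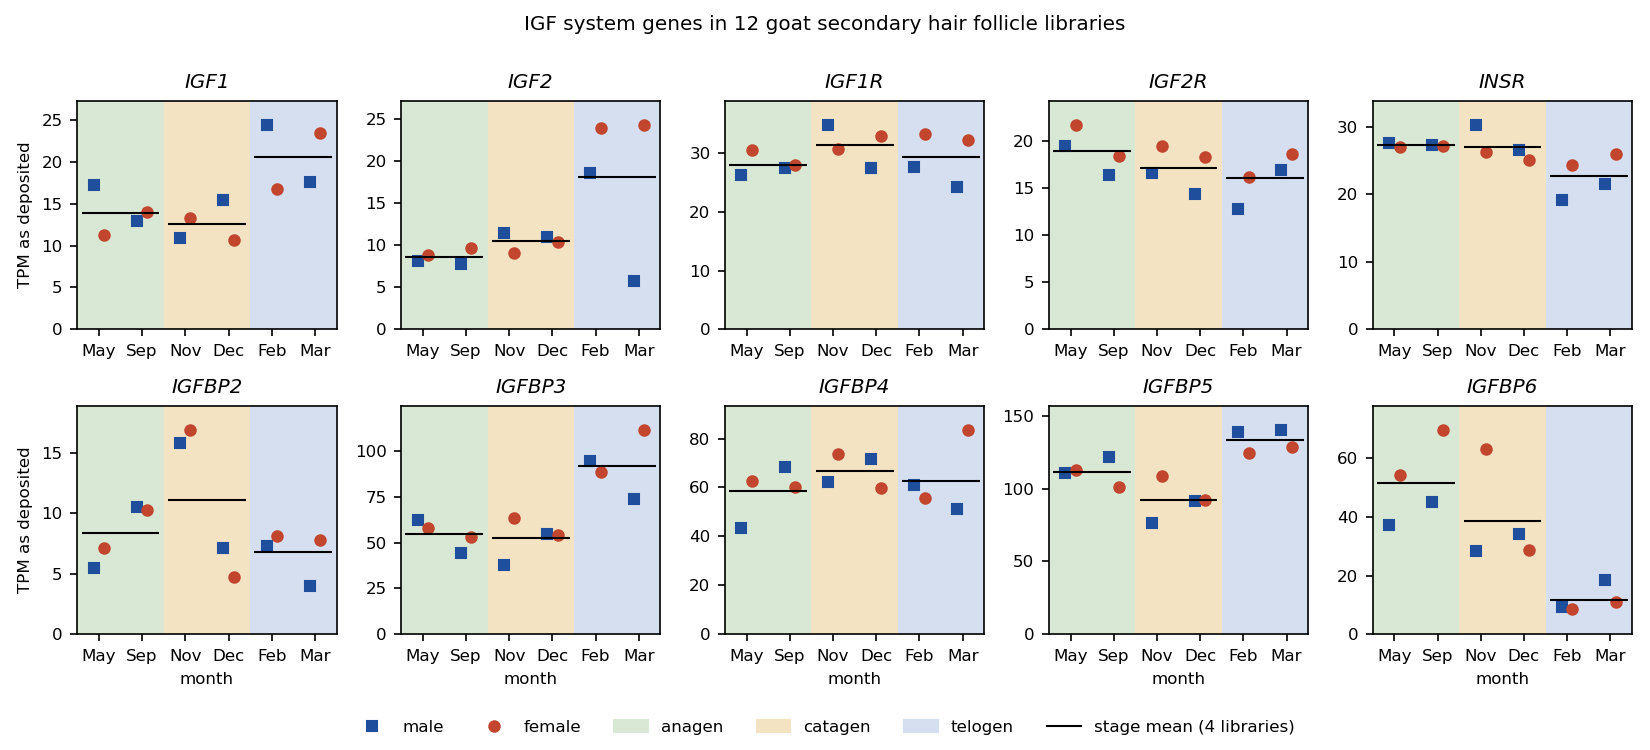
Level of each IGF system gene, in TPM as deposited, by month in 12 libraries; squares are males, circles females, horizontal lines the stage means of 4 libraries, and shading the stages. IGFBP6 sits at 8.60 to 18.5 units in telogen and at 28.4 to 69.6 units in the other stages, while IGF1R stays between 24.3 and 34.8 units.

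The growth-promoting ligand IGF1 was highest in telogen. In telogen it stood at 24.4 units in the February male, 16.7 in the February female, 17.6 in the March male and 23.4 in the March female. In catagen it stood at 10.9 units in the November male, 13.3 in the November female, 15.4 in the December male and 10.7 in the December female, and in anagen at 17.3 in the May male, 11.3 in the May female, 13.0 in the September male and 14.0 in the September female. All telogen values lay above all catagen values, whereas the May male lay above the February female. The mean was 20.5 ± 3.91 units in telogen, against 12.6 ± 2.23 in catagen (SD, n = 4 each), a log2 difference of 0.66 (SE 0.16, limma adjusted p = 0.00583). In anagen the mean was 13.9 ± 2.52 units, and anagen against telogen gave a log2 difference of -0.53 (SE 0.16, limma adjusted p = 0.0139). Log2 differences are on the log2(value + 1) scale throughout, which understates the change of low genes. Both calls held without the March male, at log2 differences of 0.73 (adjusted p = 0.0046) and -0.59 (adjusted p = 0.0112).

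IGF2, the other ligand, was high in 3 of the 4 telogen libraries and lowest of all in the remaining library. In telogen its level was 18.6 units in the February male, 23.9 in the February female, 5.76 in the March male and 24.2 in the March female. In catagen it ranged from 9.0 units in the November female to 11.4 in the November male, and in anagen from 7.72 units in the September male to 9.67 in the September female. Without the March male every telogen library lay above every library of the other stages, whereas anagen and catagen overlapped. Its mean was 8.59 ± 0.856 units in anagen, against 18.1 ± 8.63 in telogen (SD, n = 4 each), with a log2 difference of -0.83 (SE 0.32, limma adjusted p = 0.0431). The catagen mean was 10.4 ± 1.04 units, and telogen against catagen gave a log2 difference of 0.57 (SE 0.32, adjusted p = 0.16), short of the threshold. Without the March male these differences were -1.27 (SE 0.12, adjusted p = 2.51e-05) and 1.02 (SE 0.12, adjusted p = 0.00013). In anagen against telogen, 13 of 21 alternative settings took the adjusted p of IGF2 above 0.05: median-of-ratios scaling (0.0629), leaving out both May libraries (0.145), and leaving out any single library other than the March male (0.0514 without the November female to 0.127 without the February female). The March male also differed from the other telogen libraries in its summed dermal fibroblast matrix markers, at 1767 units against 859 to 1286, and in its summed Schwann cell markers, at 90.7 units against 141 to 155. The part of these in the IGF2 value was not tested. In the reference annotation of assembly ARS1.2 the microRNA gene MIR483 lies within IGF2, and no other member overlaps another gene.

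The sum of the IGF1 and IGF2 levels was 22.5 ± 2.49 units in anagen, 23.0 ± 2.33 in catagen and 38.6 ± 10.6 in telogen (SD, n = 4 each). It reached 40.6 to 47.6 units in 3 telogen libraries and stood at 23.4 in the March male, within the catagen range. The March male also had the highest IGF1 level relative to IGF2, at a ratio of 3.06, against 0.699 to 2.12 in the other 11 libraries.

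The receptors moved little. IGF1R, the kinase through which both ligands signal, averaged 28.1 ± 1.81 units in anagen, 31.5 ± 3.10 in catagen and 29.4 ± 4.15 in telogen (SD, n = 4 each), and its stage ranges overlapped. Its log2 difference was -0.10 in telogen against catagen (SE 0.11, adjusted p = 0.471) and -0.05 in anagen against telogen (SE 0.11, adjusted p = 0.699). IGF2R, the IGF2 clearance receptor, averaged 19.0 ± 2.20, 17.2 ± 2.20 and 16.1 ± 2.46 units in anagen, catagen and telogen, and none of its stage comparisons passed the test (adjusted p = 0.151 to 0.598).

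INSR, the insulin receptor, was lower in telogen than in anagen. It held 27.6 and 26.9 units in the May male and female and 27.2 units in each September library, against 19.2 and 24.3 units in the February male and female and 21.6 and 25.9 units in the March male and female. The 4 anagen libraries were nearly equal and all lay above the telogen libraries. The mean was 27.2 ± 0.289 units in anagen, against 22.7 ± 2.99 in telogen (SD, n = 4 each), with a log2 difference of 0.26 (SE 0.098, limma adjusted p = 0.0394). This call was lost in 10 of 21 alternative settings, namely without any single anagen library (adjusted p = 0.0629 to 0.0756), the February male (0.113), the March male (0.0738) or both May libraries (0.137), with month means (0.0841), with each library rescaled to a sum of 1000000 (0.208), and with the mitochondrial and ribosomal protein genes left out as well (0.271). In catagen the mean was 27.0 ± 2.21 units, and telogen against catagen gave a log2 difference of -0.24 (SE 0.098, adjusted p = 0.0585). That difference passed with median-of-ratios scaling (adjusted p = 0.0195) and without the March female (adjusted p = 0.0276). The level of IGF1R relative to INSR averaged 1.03 in anagen, 1.17 in catagen and 1.30 in telogen, with overlapping stage ranges.

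IGFBP6, a binding protein that prefers IGF2 over IGF1, was the member with the largest difference between stages. In telogen its level was 9.23 units in the February male, 8.60 in the February female, 18.5 in the March male and 10.9 in the March female. In catagen it was 28.4 units in the November male, 63.1 in the November female, 34.1 in the December male and 28.7 in the December female, and in anagen 37.2 in the May male, 54.3 in the May female, 45.0 in the September male and 69.6 in the September female. Every telogen library lay below every library of the other stages, and the March male was the nearest to them. The telogen mean was 11.8 ± 4.55 units, against 38.6 ± 16.6 in catagen, 0.306 times as high, with a log2 difference of -1.61 (SE 0.28, limma adjusted p = 0.00114). The anagen mean was 51.5 ± 13.9 units, 4.37 times the telogen mean, with a log2 difference of 2.06 (SE 0.28, limma adjusted p = 0.000194). Ranked over the 16095 tested genes, IGFBP6 had the 63rd lowest log2 difference in telogen against catagen and the 58th highest in anagen against telogen. Both calls held under all 21 alternative settings. Without the March male the differences were -1.83 and 2.28. Inner root sheath keratins were also lowest in telogen, as given above. In telogen against catagen 3 of 5 were called lower, where 19% of all tested genes were. Their part in the IGFBP6 result was not tested.

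IGFBP3, the main carrier of IGFs in blood, went the other way. In telogen it stood at 94.5 units in the February male, 88.7 in the February female, 73.9 in the March male and 111 in the March female. In catagen it stood at 37.5 units in the November male, 63.5 in the November female, 54.7 in the December male and 54.2 in the December female, and in anagen at 62.6 in the May male, 58.0 in the May female, 44.4 in the September male and 53.0 in the September female. The lowest telogen library lay above the highest library of either other stage. The mean was 92.1 ± 15.5 units in telogen, against 52.5 ± 10.9 in catagen (SD, n = 4 each), 1.75 times as high, with a log2 difference of 0.81 (SE 0.17, limma adjusted p = 0.00259). The anagen mean was 54.5 ± 7.78 units, and anagen against telogen gave a log2 difference of -0.74 (SE 0.17, limma adjusted p = 0.00265). Both calls held under all 21 alternative settings, and without the March male the differences were 0.91 and -0.84.

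IGFBP5, a binding protein that also attaches to extracellular matrix, was the highest member in every stage. In telogen it stood at 139 units in the February male, 124.6 in the February female, 140.3 in the March male and 129 in the March female. In catagen it stood at 76.4 units in the November male, 109 in the November female, 91.9 in the December male and 92.2 in the December female, and in anagen it ranged from 101 units in the September female to 122 in the September male. The telogen libraries all lay above those of both other stages, and here the March male was the highest. The mean was 133 ± 7.76 units in telogen, against 92.2 ± 13.1 in catagen (SD, n = 4 each), a log2 difference of 0.54 (SE 0.11, limma adjusted p = 0.00253) that held under all 21 alternative settings and was 0.51 (adjusted p = 0.00421) without the March male. The anagen mean was 112 ± 8.63 units. Anagen against telogen gave a log2 difference of -0.25 (SE 0.11, adjusted p = 0.0666), which passed in 5 of 21 alternative settings: quantile normalization (adjusted p = 0.00923), both rescalings to the same sum (0.0437, and 0.0176 without the mitochondrial and ribosomal protein genes), and without the November female (0.043) or the November male (0.0477). Among markers of other cell types in telogen against catagen, 3 of 11 dermal papilla markers rose (CORIN, HHIP and RSPO4), near the 24.5% of all tested genes that did, and 0 of 10 dermal fibroblast matrix markers. Summed levels in telogen lay above those in catagen without overlap for Schwann cell markers (90.7 to 155 units, against 64.7 to 80.3) and T cell markers (49.2 to 74.0, against 23.6 to 35.7). The same held for sebaceous (1325 to 2210, against 1010 to 1268), adipocyte (22.0 to 25.8, against 15.6 to 18.1) and macrophage markers (26.2 to 39.7, against 18.5 to 24.2). Sums lay below without overlap for the basal and outer root sheath, inner root sheath and hair shaft lists, and overlapped for dermal papilla markers. Of single tested genes, 35.8% had groups without overlap in either direction. Called higher, where 24.5% of all tested genes were, were 3 of 6 tested Schwann cell, 3 of 4 T cell and 2 of 5 macrophage markers. The counts were 2 of 8 for sebaceous and 1 of 4 for adipocyte markers, near that share. Melanocyte markers had 3 of 6 called higher, with overlapping sums. Where 19% of all tested genes were called lower, 2 of 3 basal and outer root sheath, 3 of 5 inner root sheath and 3 of 5 hair shaft markers were. So were 2 of 6 smooth muscle, 2 of 7 endothelium and 1 of 4 pericyte markers, with overlapping sums. The part of these cell types in the values of IGF1, IGFBP3 and IGFBP5 was not tested.

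IGFBP4, a carrier that is cut by the protease PAPPA, averaged 58.6 ± 10.7 units in anagen, 66.8 ± 6.94 in catagen and 62.8 ± 14.3 in telogen (SD, n = 4 each). Its lowest library was the May male at 43.3 units and its highest the March female at 83.4, so its stage ranges overlapped. None of its stage comparisons passed the test, at log2 differences of -0.11 in telogen against catagen (adjusted p = 0.617) and -0.09 in anagen against telogen (adjusted p = 0.654).

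IGFBP2, a carrier of both ligands and the member with the lowest mean, passed the test among months and in no stage comparison. In males it stood at 5.5 units in May, 10.5 in September, 15.8 in November, 7.15 in December, 7.28 in February and 3.98 in March. In females it stood at 7.16 units in May, 10.3 in September, 16.9 in November, 4.69 in December, 8.16 in February and 7.82 in March. The November libraries were the highest of all 12, and catagen held both these and the December female, the second lowest library. By limma's F test over the 6 months IGFBP2 passed (F = 8.69, adjusted p = 0.0157), and without the November female it did not (adjusted p = 0.0588). In the stage comparisons its log2 difference was -0.52 in telogen against catagen (SE 0.34, adjusted p = 0.237; 0.0476 without the December female) and 0.26 in anagen against telogen (SE 0.34, adjusted p = 0.541). September against May gave a log2 difference of 0.65 (SE 0.26, limma adjusted p = 0.472).

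**Figure D2:**
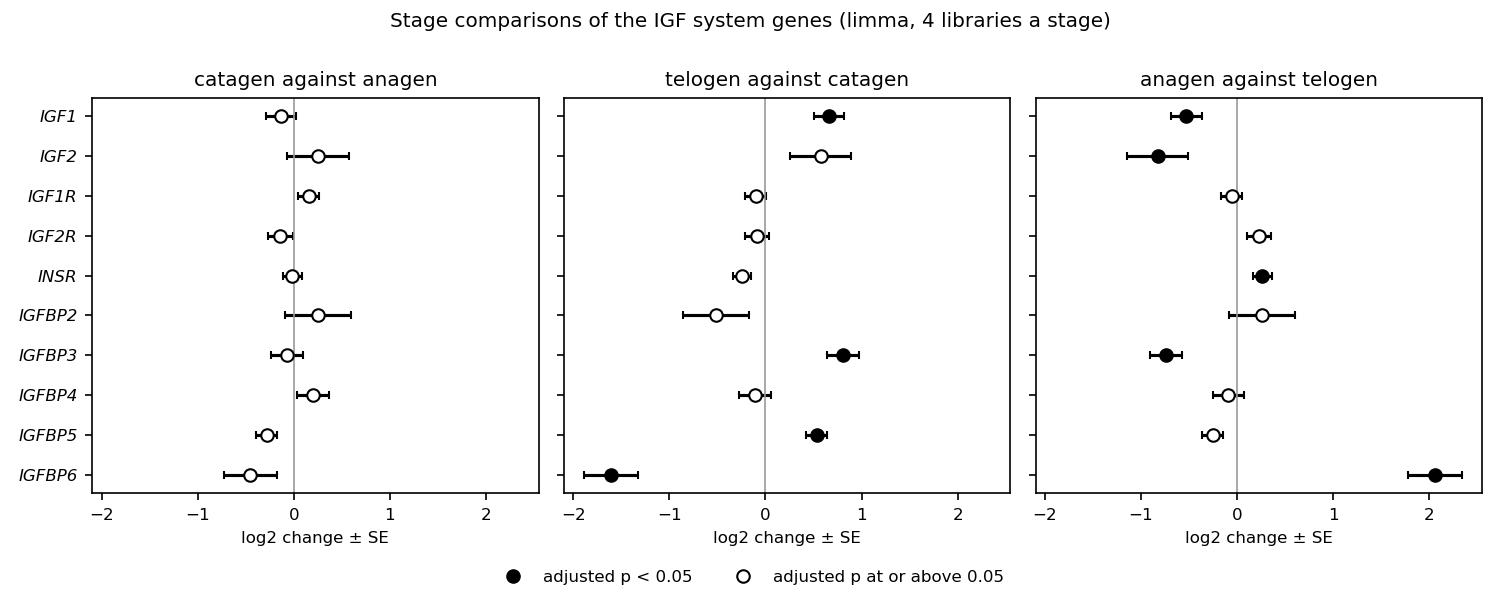
Log2 difference of each IGF system gene in the 3 stage comparisons, from limma with 4 libraries a stage; points are estimates, bars 1 standard error, and filled points passed at adjusted p < 0.05. No point is filled in catagen against anagen, and IGFBP6 lies farthest from 0 in the other comparisons, at -1.61 and 2.06.

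Set beside all tested genes, the number of members that changed between stages was near the background. In telogen against catagen 3 members rose, IGF1, IGFBP3 and IGFBP5, where 24.5% of all tested genes did, and 1 fell, IGFBP6, where 19% did; 43.6% of all tested genes were called in either direction. The all-gene calls were 3948 higher and 3063 lower, and this split depended on the scaling: it was 2909 and 3856 with median-of-ratios scaling and 4369 and 2052 with each library rescaled to the same sum. The median log2 difference was -0.10 over the members and 0.07 over all tested genes. In anagen against telogen 2 members were higher, INSR and IGFBP6, where 23.7% of all tested genes were, and 3 were lower, IGF1, IGF2 and IGFBP3, where 29.2% were; 52.9% were called in either direction. The all-gene calls were 3811 higher and 4701 lower, against 4414 and 3782 with median-of-ratios scaling and 3029 and 5661 without the mitochondrial and ribosomal protein genes. The medians were -0.07 over the members and -0.07 over all tested genes. These comparisons share the 4 telogen libraries, so their calls are not separate evidence. Groups that did not overlap were found for 4 members in telogen against catagen, where 35.8% of all tested genes had them, and for 4 members in anagen against telogen, where 43.2% had them.

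Leaving out the mitochondrial and ribosomal protein genes and rescaling moved the all-gene median by more than 0.1 in anagen against telogen, to -0.18, and relative to that median the differences were 2.18 for IGFBP6, -0.65 for IGFBP3, -0.44 for IGF1 and -0.74 for IGF2. Under the deposited scaling the same differences relative to the median were 2.13, -0.67, -0.45 and -0.75.

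In catagen against anagen no member was called by limma, where 0.0559% of all tested genes were, or 9 genes. At an unadjusted p under 0.05 there was 1 member, IGFBP5, and 2519 of all tested genes. IGFBP5 had a log2 difference of -0.28 (SE 0.11, adjusted p = 0.27), and the other members lay between -0.45 for IGFBP6 (SE 0.28, adjusted p = 0.427) and 0.26 for IGFBP2 (SE 0.34, adjusted p = 0.727). The groups overlapped for all 10 members, where 7.03% of all tested genes had groups that did not overlap.

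Among the months, limma's F test passed 3 members, IGFBP6 (F = 14.8, adjusted p = 0.00681), IGFBP2 and IGFBP3 (F = 5.80, adjusted p = 0.035), where 32.7% of all tested genes passed. IGFBP6 passed under all 20 alternative settings, and IGFBP3 was lost in 10 of 20: without any single May, September, December or February library (adjusted p = 0.0614 to 0.0975), without both May libraries (0.0541) and with median-of-ratios scaling (0.0595). IGF2 did not pass (F = 1.93, adjusted p = 0.262), and it passed only without the March male or without the March female. Either fit leaves 1 library in March, so the spread between the March libraries no longer enters the error. These fits put March on opposite sides of May. The log2 difference of IGF2 in May against March was -1.41 without the March male and 0.49 without the March female. IGFBP5 (adjusted p = 0.0799) passed in 4 of 20 settings (lowest adjusted p = 0.016) and IGF1 (adjusted p = 0.123) in 1, with libraries rescaled to the same sum (0.0484). With 2 libraries in a month, single months were compared with less precision.

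In February against December only IGFBP6 was called, and lower, where 16.6% of all tested genes were called, 8.9% higher and 7.69% lower. Its mean was 0.284 times as high in February as in December, a log2 difference of -1.70 (SE 0.37, adjusted p = 0.0232), lost when any February or December library was left out (adjusted p = 0.0685 to 0.136). IGFBP3 (0.74, adjusted p = 0.0633), IGFBP5 (0.51, adjusted p = 0.0665), IGF1 (0.61, adjusted p = 0.112) and IGF2 (0.92, adjusted p = 0.173) had positive log2 differences short of the threshold. Without either March library, whose spread enters the shared error, IGF2 passed (adjusted p = 0.00702 without the male, 0.00722 without the female). IGFBP3 passed without any single November or March library (adjusted p = 0.0295 to 0.0335), and IGFBP5 without either November library (0.0382 and 0.0385) and with quantile normalization (0.0319). The all-gene calls were 1433 higher and 1238 lower, against 950 and 2089 with median-of-ratios scaling and 1027 and 1538 without the mitochondrial and ribosomal protein genes. Median-of-ratios scaling moved the all-gene median from 0.07 to -0.04, and relative to the median IGFBP6 stood at -1.78 under either scaling.

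In May against March, the step from rest to regrowth, IGFBP6 was again the only member called, and higher, where 27.4% of all tested genes were called, 13.9% higher and 13.4% lower. Its mean in May was 3.12 times the March mean, a log2 difference of 1.59 (SE 0.37, adjusted p = 0.0157), and the call was lost without the May male, the May female or the March female (adjusted p = 0.102 at most). IGFBP3 (-0.58, adjusted p = 0.0974) and IGF1 (-0.51, adjusted p = 0.151) were short of the threshold. Without the March male, leaving 1 March library assumed to vary like the others, IGF2 had a log2 difference of -1.41 (adjusted p = 0.00215) and IGFBP3 of -0.88 (adjusted p = 0.025). IGFBP4 also passed without it, at -0.67 (adjusted p = 0.0418). IGFBP3 also passed without either November library (0.0476 and 0.0478) and without the mitochondrial and ribosomal protein genes (0.041). The all-gene calls were 2239 higher and 2163 lower, against 1750 and 2731 without the mitochondrial and ribosomal protein genes, which moved the all-gene median from -0.08 to -0.19. Relative to the median IGFBP6 stood at 1.67 under the deposited scaling and at 1.70 under the other.

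In September against May, late against early growth, no member was called by limma, where 0.137% of all tested genes were, or 22 genes. At an unadjusted p under 0.05 there was 1 member, IGFBP2, and 1572 of all tested genes. IGFBP6 stood at 1.25 times the May mean in September, with overlapping months (log2 difference 0.31, adjusted p = 0.819). Rescaling each library to the same sum moved the all-gene median of this comparison to -0.17.

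The sexes overlapped for every member, and none was called by limma with month as a block, where 0.0559% of all tested genes were, and 1 member and 1185 of all tested genes had an unadjusted p under 0.05. That member was IGF2R, which was lower in the male in 6 of 6 months, at a mean of 16.1 units in males, against 18.8 in females, with a log2 difference of -0.22 (SE 0.065, adjusted p = 0.605). IGF1R was lower in the male in 5 of 6 months, with November as the exception (log2 difference -0.16, SE 0.085, adjusted p = 0.693). IGF2 had a log2 difference of -0.38 (SE 0.25, adjusted p = 0.724), and -0.07 without the March male.

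The make-up of the binding proteins differed between telogen and the other stages. IGFBP6 made up 18.0 ± 4.15% of the summed level of the 5 binding protein genes in anagen, 14.3 ± 3.38% in catagen and 3.89 ± 1.68% in telogen (SD, n = 4 each). In telogen its share was 2.97 to 3.19% in 3 libraries and 6.41% in the March male, and in the other stages it was never below 11.97%. IGFBP3 made up 19.3 ± 3.69% in anagen, 20.1 ± 2.40% in catagen and 29.9 ± 2.96% in telogen, with the lowest telogen share, 25.7% in the March male, above the highest of the other stages, 24.1% in the May male. IGFBP5 took 39.4 ± 3.89%, 35.5 ± 2.21% and 43.7 ± 4.59% and IGFBP4 20.5 ± 2.84%, 25.8 ± 2.56% and 20.3 ± 2.83% in anagen, catagen and telogen. IGFBP2 took 2.91 ± 0.752%, 4.27 ± 2.38% and 2.22 ± 0.612%. These shares rest on the same values as the tests above and carry no test of their own.

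**Figure D3:**
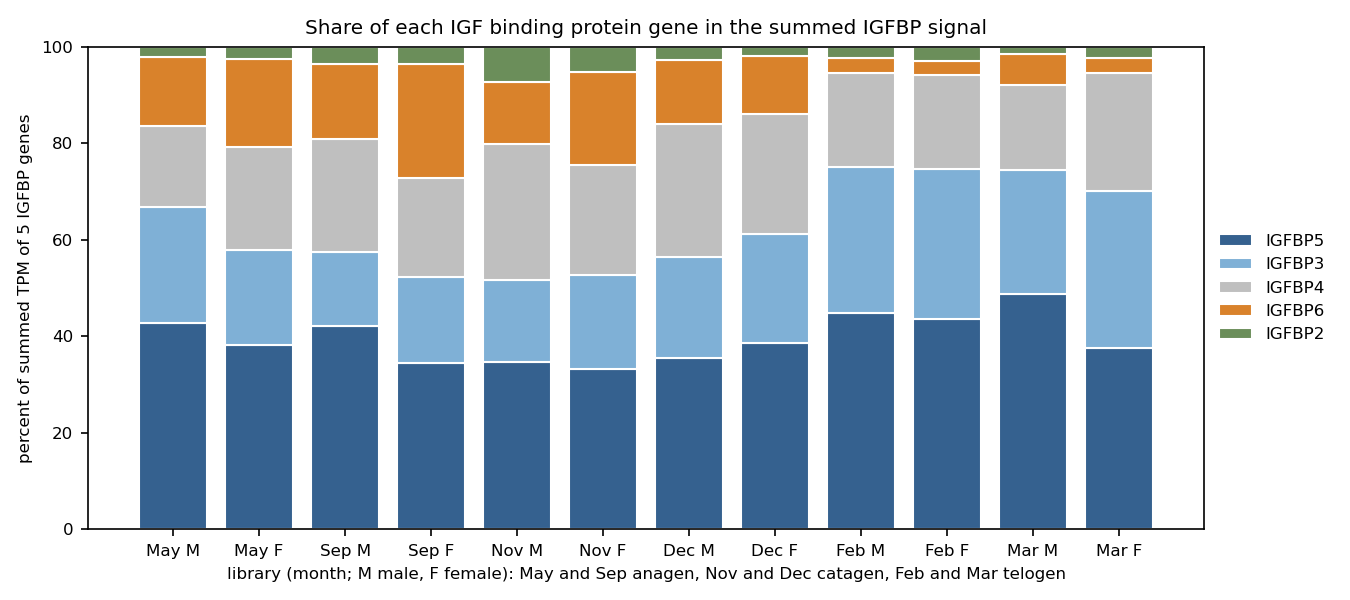
Share of each binding protein gene, in percent of the summed TPM of 5 IGFBP genes, in each of the 12 libraries, with the male left of the female in each month. The IGFBP6 segment is 2.97 to 6.41% in the 4 telogen libraries and 11.97 to 23.6% in the others.

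The summed binding protein level itself was 285 ± 16.9 units in anagen, 261 ± 45.9 in catagen and 307 ± 26.5 in telogen (SD, n = 4 each), with overlapping ranges. Divided by the summed IGF1 and IGF2 level, it came to 12.8 ± 1.98 in anagen, 11.4 ± 2.25 in catagen and 8.45 ± 2.58 in telogen. In 3 telogen libraries the quotient was 7.03 to 7.26, below every library of the other stages, and in the March male it was 12.3. The quotient of IGFBP3 and IGFBP6 was 0.762 to 1.68 in anagen and 1.01 to 1.89 in catagen. In telogen it was 10.2 to 10.3 in 3 libraries and 4.0 in the March male, which lay between the other telogen libraries and those of catagen and anagen.

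**Figure D4:**
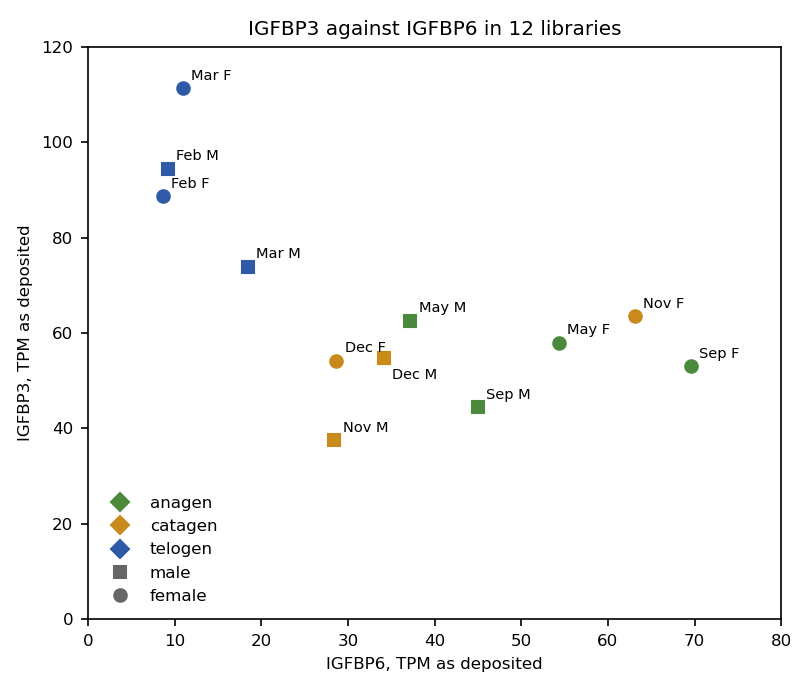
IGFBP3 level against IGFBP6 level, both in TPM as deposited, with 1 point per library; colours mark stages, squares males and circles females. The 4 telogen libraries lie apart at high IGFBP3 and low IGFBP6, with the March male, at 73.9 and 18.5 units, nearest to the rest.

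Across the 12 libraries, which share stages, IGF1 and IGFBP3 had a Pearson correlation of 0.85 on the log2 scale, IGFBP3 and IGFBP5 of 0.76 and IGF1 and IGFBP5 of 0.71. IGFBP6 had correlations of -0.73 with IGFBP3 and -0.73 with IGF2. Over the 8 anagen and catagen libraries alone the first 3 of these were 0.47, 0.52 and 0.35, and the correlation of IGFBP3 and IGFBP6 was 0.43, opposite in sign to that over all 12. In the same 8 libraries IGF2 and IGFBP5 stood at -0.94 and IGF1 and IGF1R at -0.88. IGFBP2 and IGFBP5, which are neighbouring genes in assembly ARS1.2, had a correlation of -0.39 over the 12 libraries. These are descriptions over few libraries.

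The genes whose pattern was most like that of a member were taken as the 3 highest Pearson correlations over 12 libraries among 10651 named genes with a mean of at least 5 units. For IGFBP6 these were PSMD4, a proteasome subunit (0.987), TRMT61A, a transfer RNA methyltransferase subunit (0.986), and BCAP31, an endoplasmic reticulum membrane protein (0.986), and over the 8 anagen and catagen libraries they were 0.954, 0.927 and 0.980. For IGFBP3 they were WEE1, a kinase that holds back entry into mitosis (0.965), ASTE1 (0.946) and C26H10orf76 (0.942). For IGF1 they were ALDH5A1 (0.923), FAM180A (0.919) and ANAPC4 (0.913), and for IGFBP5 MLKL (0.879), TMEM150A (0.876) and COLEC11 (0.873). For IGF2R they included PCNX3 (0.950) and TSC2 (0.943), and for INSR JADE2 (0.957) and CLEC14A (0.953). Over the 8 anagen and catagen libraries the values for IGFBP3 were 0.910, 0.832 and 0.674, in the order given. They were 0.756 to 0.841 for the genes named with IGF1 and 0.704 to 0.769 for those named with IGFBP5. For IGF2R they were 0.963 and 0.947, and for INSR 0.672 and 0.810. IGF2 was most like PPP1R3D (0.935), SEMA3E (0.928) and KLHL42 (0.927), of which SEMA3E and KLHL42 fell to 0.394 and 0.400 over the 8 libraries outside telogen. The closest genes to IGFBP2 were DKK3, a secreted protein of the Dickkopf family (0.871), BLOC1S1 (0.850) and PDGFRB (0.827). IGFBP4 and IGF1R had the lowest top values, 0.821 with FAM126A and 0.860 with CTDSPL.

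The counts of the other lists stand beside the shares of all tested genes, 24.5% higher and 19% lower in telogen against catagen and 23.7% higher and 29.2% lower in anagen against telogen, and the differences between lists were not tested. Of 10 tested genes that regulate IGF availability outside the cell, 3 rose in telogen against catagen and none fell, with a median log2 difference of 0.19. In anagen against telogen 4 were lower and none higher, with a median of -0.22. ADAM28, a protease reported to cut IGFBP3, stood at 4.98 ± 1.15 units in telogen, against 1.96 ± 0.305 in catagen (SD, n = 4 each), a log2 difference of 1.00 (SE 0.14, adjusted p = 0.000483), and at 2.01 ± 0.148 units in anagen. IGFALS, the acid-labile subunit that joins IGFBP3 and IGF in a ternary complex, had a log2 difference of 0.57 (SE 0.14, adjusted p = 0.00674). STC1, a stanniocalcin of the family that inhibits the IGFBP4 protease PAPPA, had 0.67 (SE 0.22, adjusted p = 0.0234) and was lost in 4 of 21 alternative settings, with quantile normalization and without the November, February or March female (highest adjusted p = 0.0984). PAPPA itself averaged 7.12 ± 1.74 units in anagen, 6.0 ± 0.789 in catagen and 6.02 ± 0.850 in telogen and passed no stage comparison.

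Other proteins related to IGF binding gave 2 of 9 higher and none lower in telogen against catagen, and none higher and 4 of 9 lower in anagen against telogen, with median log2 differences of 0.26 and -0.49. WISP2, a secreted CCN family protein, stood at 12.5 ± 2.11 units in telogen, against 6.37 ± 0.529 in catagen (log2 difference 0.86, SE 0.12, adjusted p = 0.000483), and anagen against telogen gave -0.71 (adjusted p = 0.000562). IGFBP7, a low-affinity IGF binder, stood at 317 ± 43.2 units in anagen, against 460 ± 85.7 in telogen (SD, n = 4 each), a log2 difference of -0.53 (SE 0.15, adjusted p = 0.00987), lost when both May libraries were left out (adjusted p = 0.11). Of the IGF2 mRNA binding proteins, IGF2BP3 was called in both comparisons, 0.48 in telogen against catagen (adjusted p = 0.0452) and -0.46 in anagen against telogen (adjusted p = 0.0439), and lost in 14 of 21 alternative settings of each (highest adjusted p = 0.466 and 0.304), most of them with a single library left out. The other tested member of that list, IGF2BP2, was not called.

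Of 18 tested receptor adaptors and feedback genes, 6 rose and 5 fell in telogen against catagen, and 4 were higher and 5 lower in anagen against telogen, with medians of -0.01 and 0.03. The adaptor GAB1 gave -0.41 in anagen against telogen (SE 0.095, adjusted p = 0.00356). RACK1, a ribosome-bound scaffold, gave -0.47 (adjusted p = 0.0469) and the adaptor SHC1 0.29 (adjusted p = 0.0436) in telogen against catagen, and these were lost in 16 and 14 of 21 alternative settings (highest adjusted p = 0.653 and 0.187), most of them with a single library left out. The adaptor CRK gave -0.27 in telogen against catagen (adjusted p = 0.0156), lost in 3 of 21 settings (highest adjusted p = 0.173, with libraries rescaled to the same sum). IRS2, a docking protein of IGF1R and INSR named here after its values were seen, stood at 8.02 ± 0.641 units in telogen, against 13.3 ± 1.42 in catagen (SD, n = 4 each), a log2 difference of -0.66 (SE 0.096, adjusted p = 0.000531). How many alternative settings kept the IRS2 call is not given here.

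Of 30 tested genes of the PI3K, AKT, FOXO and mTOR arm, 6 rose and 4 fell in telogen against catagen, and 5 were higher and 10 lower in anagen against telogen, with medians of 0.02 and -0.11. PIK3R1, a regulatory subunit of PI3K, stood at 94.0 ± 22.2 units in telogen, against 52.7 ± 5.57 in catagen. The log2 difference was 0.80 (SE 0.15, limma adjusted p = 0.00141), and anagen against telogen gave -1.03 (limma adjusted p = 0.000226). AKT1, a kinase downstream of PI3K, stood at 69.3 ± 4.59 units in telogen, against 88.7 ± 9.57 in catagen, a log2 difference of -0.35 (SE 0.096, adjusted p = 0.0114), lost in 2 of 21 alternative settings (adjusted p = 0.106 at most, with libraries rescaled to the same sum). FOXO1, a transcription factor that AKT holds out of the nucleus and named here after its values were seen, stood at 39.4 ± 5.05 units in telogen, against 24.4 ± 1.47 in catagen (log2 difference 0.66, SE 0.12, adjusted p = 0.00115). How many alternative settings kept the FOXO1 call is not given here.

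Of 14 tested RAS and ERK genes, 5 rose and 3 fell in telogen against catagen, and 4 were higher and 7 lower in anagen against telogen, with medians of 0.09 and -0.26. The GTPase HRAS stood at 53.9 ± 11.4 units in telogen, against 100.1 ± 17.7 in catagen (log2 difference -0.89, SE 0.17, adjusted p = 0.00166), while the kinase BRAF stood at 103 ± 19.3 units in telogen, against 72.7 ± 9.57 in catagen (log2 difference 0.49, SE 0.13, adjusted p = 0.0107). Of the 4 tested genes of the growth hormone arm, which drives IGF1 in liver, none was called in telogen against catagen, and 2 were lower in anagen against telogen, with medians of 0.17 and -0.33. These were the growth hormone receptor GHR, at 12.9 ± 2.66 units in anagen, against 19.1 ± 4.67 in telogen (log2 difference -0.53, SE 0.16, adjusted p = 0.0146), lost without both May libraries, and the kinase JAK2 (-0.54, SE 0.12, adjusted p = 0.00225). None of the genes of these lists was called in catagen against anagen, September against May or male against female.

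**Figure D5:**
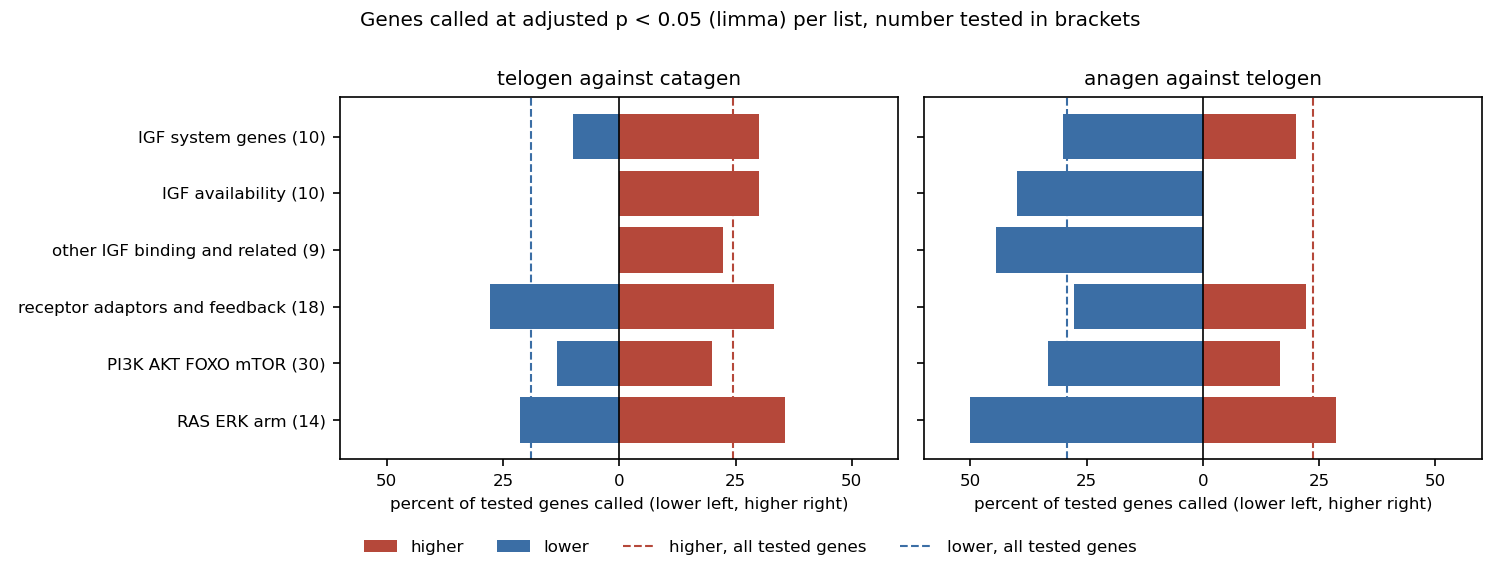
Percent of tested genes of each list called higher (right, red) or lower (left, blue) at adjusted p < 0.05 by limma, in telogen against catagen and in anagen against telogen, with the number tested in brackets; dashed lines are the percent over all tested genes. The bars of the IGF system genes, 3 of 10 higher and 1 of 10 lower in telogen against catagen and 2 and 3 of 10 in anagen against telogen, end near the dashed lines or short of them.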

How the data were processed

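Each library came as a table of 1 value per gene. RNA was extracted with a TRIzol-type reagent per the labels' protocols, and kallisto 0.46.1 and sleuth 0.30.0 are named in the submitters' processing notes. The genome build and annotation are not given in the sources used here. The deposited signal values are headed TPM, but their library sums run from 904623 to 1127797, so they had been rescaled by a step that the authors do not describe. Read depth is therefore unknown. The plan allowed for counts, and the limma branch was used because the unit is a normalized one. Gene symbols came from the table of assembly ARS1.2 by gene number (20294 matched, 32 not).

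Values were taken as log2(value + 1), and 16095 of 20326 genes with at least 1 unit in at least 2 libraries were tested. Linear models with a mean-variance trend were fitted to all 12 libraries (limma 3.58.1, R 4.3.3); groups were stages or months, and sex was compared with month as a block. Adjusted p-values are Benjamini-Hochberg values over all tested genes, and a gene passed at adjusted p < 0.05. They measure the spread between these libraries. No 2 libraries had equal values in more than 1.55% of tested genes.

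All members are named whatever their result. From each other list up to 3 called genes with the highest means qualified, except where said; some genes that qualified are not reported here. The members and lists were chosen with earlier results of these data known. Alternatives were an added constant of 0.1, no filter, 4 other scalings, the replicate number (which marks sex) as a block, month means, leaving out both May libraries and leaving out each library. Sequences are not shown.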

Additional observations from a re-analysis of the deposited data

Results flagged for a closer look

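The lowest and highest library was checked within 50 groups (each member in each stage of 4 libraries and in each sex of 6). Chance flags about 1 in 20 groups, and 2 groups held a library far from the others, no more than that rate gives. The groups share libraries and each sex group pools the 3 stages, so the rate is only a guide. IGFBP6 stood at 63.1 units in the November female, where the other 3 catagen libraries held 28.4 to 34.1 units. The gap to the nearest was 0.835 of the whole range, just above Dixon's 95% critical value for 4 libraries. IGF1R stood at 34.8 units in the November male, where the other 5 males held 24.3 to 27.7 units. The gap to the nearest was 0.677 of the whole range, above that value for 6 libraries. The March male value of IGF2 was not among them.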

How the results depend on the processing

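Of the 14 member comparisons that passed, none changed sign under any alternative run, and the settings that lost a call are given with each result. Over the 80 member comparisons and all settings there were 48 changes of sign, all in comparisons short of the threshold. In the stage comparisons the log2 difference changed to 0.0303 for INSR in catagen against anagen without the mitochondrial and ribosomal protein genes, to 0.0019 for IGF2R in telogen against catagen with libraries rescaled to the same sum, and to 0.0287 for IGF1R in anagen against telogen with median-of-ratios scaling. Without both May libraries it became -0.0675 for IGFBP2 and 0.0864 for IGFBP3 in catagen against anagen and 0.0553 for IGFBP4 in anagen against telogen. With single libraries left out, the log2 difference ran from -0.0681 to 0.018 for INSR and from -0.17 to 0.083 for IGFBP3 in catagen against anagen, from -0.17 to 0.0133 for IGF2R in telogen against catagen, from -0.14 to 0.0069 for IGF1R and from -0.18 to 0.0505 for IGFBP4 in anagen against telogen, and from -1.41 to 0.49 for IGF2 in May against March. The cause was not tested.

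The number of genes called in September against May was 22, and 12 with log2(value + 0.1). Without both May libraries catagen against anagen gave 4 genes instead of 9, the F test 2712 instead of 5259, and February against December 1551 instead of 2671. With single libraries left out, fewer libraries entered the fits and the counts ran from 3 to 13 for catagen against anagen, 5257 to 7545 for telogen against catagen, 7337 to 8668 for anagen against telogen, 2344 to 7221 for the F test, 8 to 33 for September against May, 19 to 4468 for February against December, 225 to 5977 for May against March and 6 to 8 for male against female. September and May against each other, or May and March, were not fitted without both May libraries.

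Same-numbered libraries did not deviate together in every pair of months. Over 15 pairs the correlation ran from -0.255 to 0.442, with a median of 0.114 and 9 pairs over 0.1. The number marks sex, so these values cannot show whether the same goats were sampled in different months. With the replicate number as a block the counts were 9 for catagen against anagen, 7074 for telogen against catagen, 8624 for anagen against telogen, 5123 for the F test, 21 for September against May, 2546 for February against December and 4408 for May against March, and no call of a member changed; of the other named genes RACK1 lost its call. Read depth is unknown, so no counting error could be given, and members with low levels, such as IGFBP2, carry an error that could not be separated into its sources.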

Other observations

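IGFBP1, a binding protein that lies next to IGFBP3 in assembly ARS1.2 and is best known from liver, was not a member, and it is described here because its values were seen. In males it stood at 0.14 units in May, 0.64 in September, 1.71 in November, 0.81 in December, 0.75 in February and 0.49 in March. In females it stood at 1.20 units in May, 1.44 in September, 1.44 in November, 5.58 in December, 12.6 in February and 15.4 in March. The female library was the higher in 5 of 6 months, and the 3 highest values were those of the females of December, February and March. With month as a block limma gave a log2 difference of -1.61 in males against females, with an adjusted p of 0.605, so it failed the correction. Each of these months has 1 library of a sex, so the goat and the sex cannot be told apart.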
